A study of Mus musculus with 15 samples.

Results

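The samples described here are brain macrophages of 6-month-old mice that carry or lack the BRAF V600E mutation, 4 of the 15 samples of the series, chosen by their labelled organ and age. There were 2 mutant samples, called VE 1 and VE 2, and 2 controls, called WT 1 and WT 2. The mouse line named for all samples combines a Cre recombinase driven by the Csf1r gene (Csf1r-MeriCreMer), a BRAF allele that makes the V600E kinase once Cre removes a stop cassette (LSL-V600E) and a YFP reporter at Rosa26 that Cre switches on in the same way. The protocol describes a sort of cells positive for YFP and for F4/80, a surface antigen of mouse macrophages. The source labels carry YFP+ for the VE samples and not for the WT samples, so the WT cells may have been sorted without YFP, and genotype and sort gate cannot be told apart. Titles also carry sc and veh, which no label explains, and the design text gives the region as brain stem. Csf1r is active in macrophages of every tissue and in other myeloid cells, so the Cre driver alone does not tell which brain cells carry the mutation. No label ties the samples to separate animals, and p-values therefore measure only how far these samples spread, which may be technical.

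Microglia are the resident macrophages of the brain. At rest they express a set of surface receptors and regulators, among them the ADP receptor P2ry12, the fractalkine receptor Cx3cr1 and Tmem119, that sets them apart from other macrophages. In injury, demyelination and ageing they can take on a second program, called disease-associated, with the lipid carrier Apoe, the matrix protein Spp1 and the lectin receptor Clec7a. BRAF is a kinase of the MAPK pathway, which passes signals from growth factor receptors such as Csf1r to the nucleus, and the V600E form signals without input from above. The comparison of VE with WT asked how cells carrying that form stand at the later of the ages studied.

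Each value is a TPM, a length-scaled share of a sample's transcripts that sums to 1000000 over all genes, so genes can be compared with each other within a sample. Such shares carry no read counts, so the depth is unknown. WT 1 had 1 column and each other sample a pair, which were averaged. Spearman correlations across genes were 0.786 to 0.825 between columns of the same sample, 0.739 to 0.815 between samples of a genotype and 0.585 to 0.71 between VE and WT. Genes are not independent replicates, so these correlations carry no test.

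The abundance was spread differently in the genotypes. In VE the 100 most abundant genes held 60.6 and 60.2% of all TPM, against 51.1% in each WT sample, and 3799 and 4051 genes reached 10 TPM, against 5699 and 5895. Cst3, which encodes the secreted protease inhibitor cystatin C, led in both WT samples with 123851 and 123065 TPM. Lyz2, the lysozyme of macrophages, led in VE 1 with 78098 TPM, while Cst3 led in VE 2 with 62165. The median log2 fold change of VE over WT over all 12174 tested genes was -0.73, and it was -0.67 after rescaling without the mitochondrially encoded genes and the 20 most abundant ones. What lies behind this shift was not tested. Because of the shift, each gene was tested on log2(TPM + 1) and again after quantile normalization, which gives the 4 samples 1 common distribution and left a median of -0.11. "Rose" and "fell" are used below only for genes past the threshold (adjusted p under 0.05 in limma, a linear model fitted across all genes) in the same direction on both scales.

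**Figure D1:**
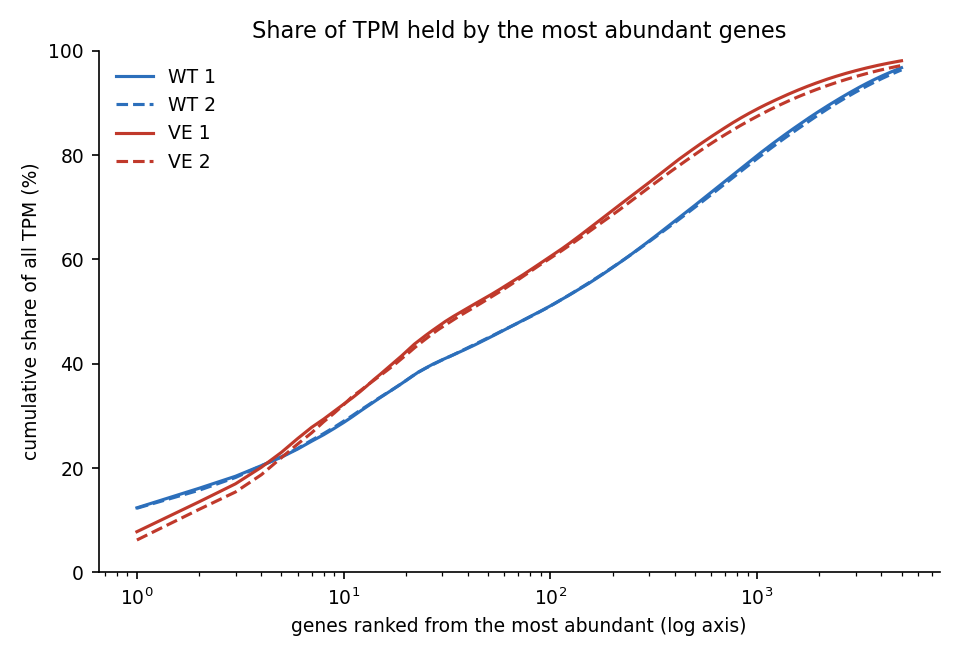
Cumulative share of all TPM (y axis, in %) held by the genes of each sample ranked from the most abundant (x axis, number of genes on a log axis), with WT in blue, VE in red and the second sample of each genotype dashed. Both VE curves lie above both WT curves at 100 genes, at 60.6 and 60.2% against 51.1%.

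A second difference between the genotypes was low coverage of genes that macrophages do not use. Of 1146 olfactory receptor genes, 1133 and 1140 were above 0 in VE 1 and VE 2, against 285 and 476 in WT 1 and WT 2, at medians of 0.0883 and 0.221 TPM in VE. A further 10 predicted gene models at places known for satellite repeats, 2 between bases 98662237 and 98667301 of chromosome 2 and 8 between bases 3000282 and 3038316 of chromosome 9 (GRCm38), held 2.05 and 4.98% of all TPM in VE and 0.033 and 0.0486% in WT. The 10 models were chosen by name and not by a rule, and some are among the largest rises described below. Their share is therefore no independent evidence of a difference. The part of the low coverage and of the repeat models in the results was not tested.

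On log2(TPM + 1), 440 of the 12174 tested genes (3.61%) were higher in VE and 1784 (14.7%) lower. After quantile normalization 518 (4.25%) were higher and 417 (3.43%) lower, and 359 genes (2.95%) rose and 411 (3.38%) fell on both scales. The shares on both scales are the background for the list counts below, and in a short list 1 member already exceeds them. Median-ratio scaling gave 1086 higher and 380 lower genes. The 411 genes that fell were mostly protein-coding (87.8%), near the 79.1% of all tested genes, whereas of the 359 that rose 46.0% were protein-coding, 18.7% were microRNA genes and 33.7% had a single exon, against 4.11% and 11.6% of all tested genes. Protein-coding genes with more than 1 exon numbered 156 among those that rose and 356 among those that fell. Samples of a genotype differed by a median of 0.56 (VE) and 0.50 (WT) on the log2 scale. The calls on log2(TPM + 1) depended on having both VE samples in the fit. Without VE 1 or VE 2 the median log2 fold changes over all tested genes were -0.67 and -0.77. The 359 and 411 genes all kept their sign. Leaving out a sample cannot change the sign of a gene whose groups do not overlap, so the kept signs are no support for the calls.

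**Figure D2:**
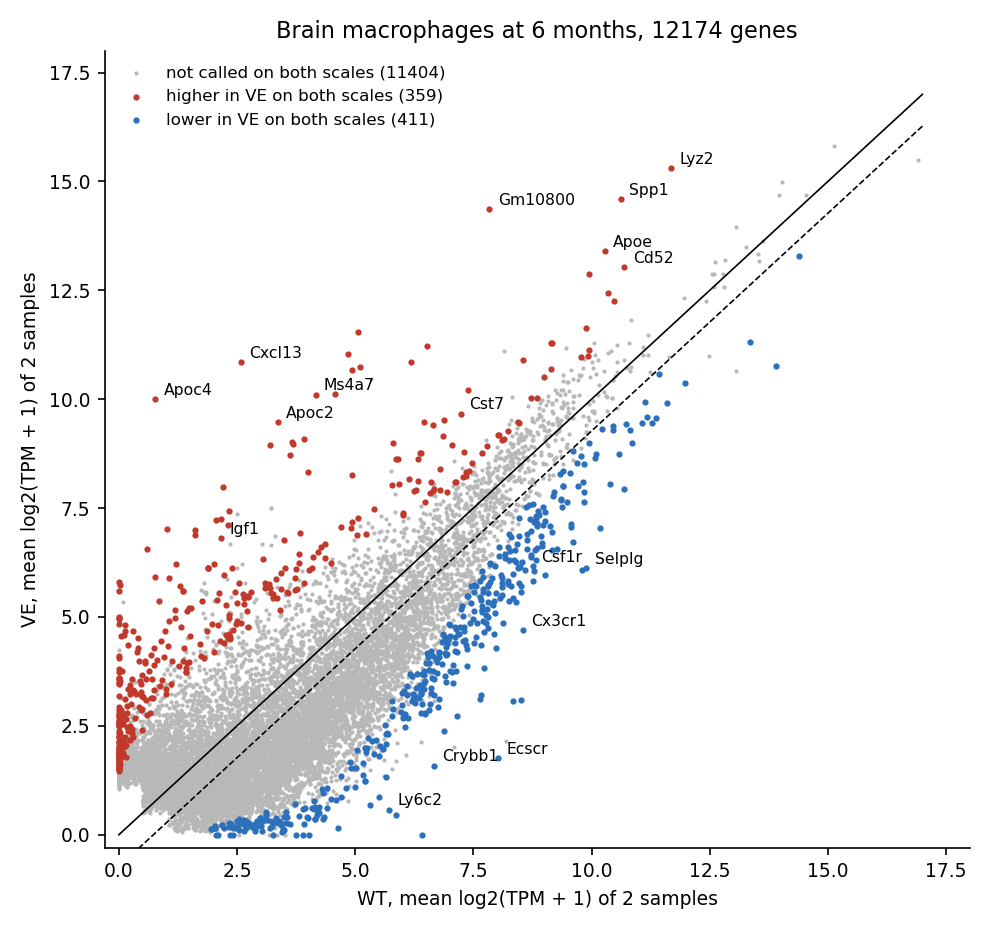
Mean log2(TPM + 1) of the 2 VE samples (y axis) against that of the 2 WT samples (x axis) for all 12174 tested genes, with the 359 genes higher in VE on both scales in red, the 411 lower in blue and the rest in grey. The solid line marks equal values and the dashed line the median difference of -0.73, below which the microglial genes Cx3cr1, Selplg and Csf1r lie, while Apoc4, Apoc2, Cxcl13 and Spp1 lie far above both lines.

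Apoc4 had the largest log2 fold change of the genes that met the rule for named genes, and its neighbours on the chromosome rose with it. Apoc4, which encodes a minor lipoprotein component, was listed at 0 in WT 1 and at 1.89 TPM in WT 2, and stood at 1066 in VE 1 and 994 in VE 2. Apoc2, the cofactor that activates lipoprotein lipase, stood at 11.7 and 7.27 TPM in WT and 1039 and 490 in VE. Apoc1, an inhibitor of lipoprotein uptake, had 5.93 and 20.8 TPM in WT and 1048 and 169 in VE. For all of these genes the lowest VE sample was several times above the highest WT sample; VE was higher without overlap for 16.7% of all tested genes. Apoe, the main lipid carrier made by glia, already stood at 732 and 2097 TPM in WT and reached 15150 and 7744 in VE. After quantile normalization the log2 fold changes were 9.20 for Apoc4, 6.50 for Apoc2, 5.55 for Apoc1 and 2.87 for Apoe, and all 4 genes rose.

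These genes are neighbours on the reverse strand of mouse chromosome 7. The 250 bases before the RefSeq start are printed for the 3 of them in the promoter table, because these genes moved together, and for Igf1 and Spp1, the growth factor and matrix genes described next (GRCm38.p6; Apoc1 was not matched). The windows are chr7:19699189-19699438 on the minus strand for Apoe, chr7:19677942-19678191 on the minus strand for Apoc2, chr7:19681461-19681710 on the minus strand for Apoc4, chr10:87860861-87861110 on the plus strand for Igf1 and chr5:104434861-104435110 on the plus strand for Spp1. The starts of Igf1 and Spp1 did not coincide with a GENCODE transcript start. Capitals mark matches, on either strand, to the ETS core AGGAAG, the PU.1 octamer GAGGAAGT, which contains that core, and the AP-1 site TGANTCA, where N is any base. ETS and AP-1 factors are known targets of MAPK signalling, and PU.1 is the ETS factor of macrophages.
Apoe: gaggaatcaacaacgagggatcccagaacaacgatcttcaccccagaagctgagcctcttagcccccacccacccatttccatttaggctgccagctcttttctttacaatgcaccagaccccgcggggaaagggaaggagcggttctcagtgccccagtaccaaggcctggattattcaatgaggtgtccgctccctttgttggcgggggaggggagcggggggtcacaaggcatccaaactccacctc
Apoc2: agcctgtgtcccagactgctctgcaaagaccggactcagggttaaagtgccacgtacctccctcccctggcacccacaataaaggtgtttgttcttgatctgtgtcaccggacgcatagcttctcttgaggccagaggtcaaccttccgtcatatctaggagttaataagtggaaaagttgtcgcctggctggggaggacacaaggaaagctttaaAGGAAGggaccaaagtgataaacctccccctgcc
Apoc4: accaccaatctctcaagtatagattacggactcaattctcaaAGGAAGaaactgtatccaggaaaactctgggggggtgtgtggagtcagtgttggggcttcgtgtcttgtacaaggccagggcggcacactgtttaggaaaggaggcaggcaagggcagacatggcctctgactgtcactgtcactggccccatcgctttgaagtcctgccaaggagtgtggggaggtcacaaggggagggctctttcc
Igf1: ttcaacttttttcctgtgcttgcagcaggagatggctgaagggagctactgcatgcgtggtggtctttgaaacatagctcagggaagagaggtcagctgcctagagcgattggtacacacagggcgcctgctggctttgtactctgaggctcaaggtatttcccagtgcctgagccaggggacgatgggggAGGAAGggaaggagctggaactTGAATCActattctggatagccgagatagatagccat
Spp1: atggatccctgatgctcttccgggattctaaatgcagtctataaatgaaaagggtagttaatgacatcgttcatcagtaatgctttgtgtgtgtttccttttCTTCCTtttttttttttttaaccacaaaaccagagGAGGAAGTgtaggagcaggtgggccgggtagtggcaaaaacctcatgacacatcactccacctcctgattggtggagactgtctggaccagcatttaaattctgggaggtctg
The core lies 34 bases before the start in Apoc2, 208 in Apoc4 and 59 in Igf1, the AP-1 match 37 before the start of Igf1, and the octamer 113 before the start of Spp1. The core also occurs in Spp1 at 112 bases, within the octamer, and at 148, where it reads CTTCCT because it lies on the other strand. Apoe had no match in this window, which says only that these letters are absent from it. Of all 27025 RefSeq promoters of this length 29.2% held the ETS core, 2.44% the octamer and 6.87% the AP-1 site. Of the promoters of tested genes the shares were 28.9, 2.94 and 4.16%, and of those of genes that rose (134 matched) 37.3, 4.48 and 9.7%. Genes that fell (289 matched) had 32.9, 4.84 and 4.5%. A match is a description of the letters and no binding site.

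The wider list of apolipoprotein and lipid-handling genes held 22 tested members of 26. Their median log2 fold change was 0.40 (1.01 after quantile normalization). Of these members 5 rose and 0 fell on both scales, beside 2.95 and 3.38% of all tested genes. The fifth was Fabp5, a fatty acid carrier, at 31.7 and 5.24 TPM in WT and 182 and 79.0 in VE. Abca1, a cholesterol exporter, and Cd36, a fatty acid receptor, passed only after quantile normalization, at 1.98 and 4.51. Npc1 and Npc2, which move cholesterol out of the lysosome, passed only on log2(TPM + 1), at -1.73 and -1.48, as did Lrp1, a receptor for Apoe, at -2.15, and the phospholipid enzyme Lpcat3 at -2.20. Lpl, the lipase that Apoc2 activates, stood at 36.8 and 13.7 TPM in WT and 45.6 and 83.2 in VE and passed on neither scale. Of 14 tested cholesterol synthesis genes 0 passed on both scales, at medians of -0.49 and, after quantile normalization, 0.28. One of them, Fdft1, which commits precursors to sterols, passed on log2(TPM + 1) alone, at -1.61.

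The disease-associated list had 26 tested members of 28 listed. On log2(TPM + 1) 14 were higher and 3 lower, beside 3.61 and 14.7% of all tested genes. On both scales 12 rose and 2 fell, beside 2.95 and 3.38%. The median log2 fold change was 1.75 (2.10 after quantile normalization). This list was chosen with earlier results of these data known, so its direction is no independent evidence. The counts on both scales depended on which samples were in the fit, most of all on the 2 VE samples.

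Among its members, Spp1 (osteopontin) stood at 3371 and 733 TPM in WT and 28560 and 21280 in VE, which made it one of the most abundant VE transcripts. The difference was 3.97 on log2(TPM + 1) (SE 0.65, limma adjusted p = 0.020). Igf1, insulin-like growth factor 1, had 2.44 and 4.91 TPM in WT and 111 and 112 in VE, so the VE samples were nearly equal and far from WT, with a difference of 4.65 (SE 0.44, adjusted p = 0.0088). Clec7a, a receptor for fungal glucans, had 226 and 121 TPM in WT and 1404 and 995 in VE. Cst7, an inhibitor of cathepsins, had 150 TPM in each WT sample and 1127 and 587 in VE. The receptor kinase Axl, which recognises dying cells through Gas6, had 6.90 and 1.09 TPM in WT and 87.3 and 61.6 in VE. Each of these genes rose. Their groups did not overlap, beside the 16.7% of all tested genes given above.

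Ch25h, which makes 25-hydroxycholesterol, rose from 65.0 and 45.4 to 593 and 441 TPM, and Cybb, the catalytic subunit of the phagocyte oxidase, from 14.0 and 7.83 to 83.8 and 55.9. Cd52, a surface glycoprotein of leukocytes, rose from 1891 and 1450 to 9585 and 7318 TPM, and the tetraspanin Cd63 from 998 and 903 to 3992 and 2510. The chemokine Ccl6 rose by 1.77 on the log2 scale. The receptor and its adaptor through which this program is known to be switched on did not rise on both scales. Trem2 stood at 833 and 1075 TPM in WT and 640 and 580 in VE (-0.64, adjusted p = 0.081, and 0.29 with median-ratio scaling). Tyrobp, its adaptor, stood at 16140 and 17320 TPM in WT and 31660 and 33370 in VE, a difference of 0.96 that passed on log2(TPM + 1) and was 0.27 after quantile normalization (adjusted p = 0.18). The cathepsins Ctsd and Ctsl, listed in this program, fell, by 1.79 and 1.63 on the log2 scale. Gpnmb, a late member, did not reach the filter, at 1.97 and 0.422 TPM in VE.

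**Figure D3:**
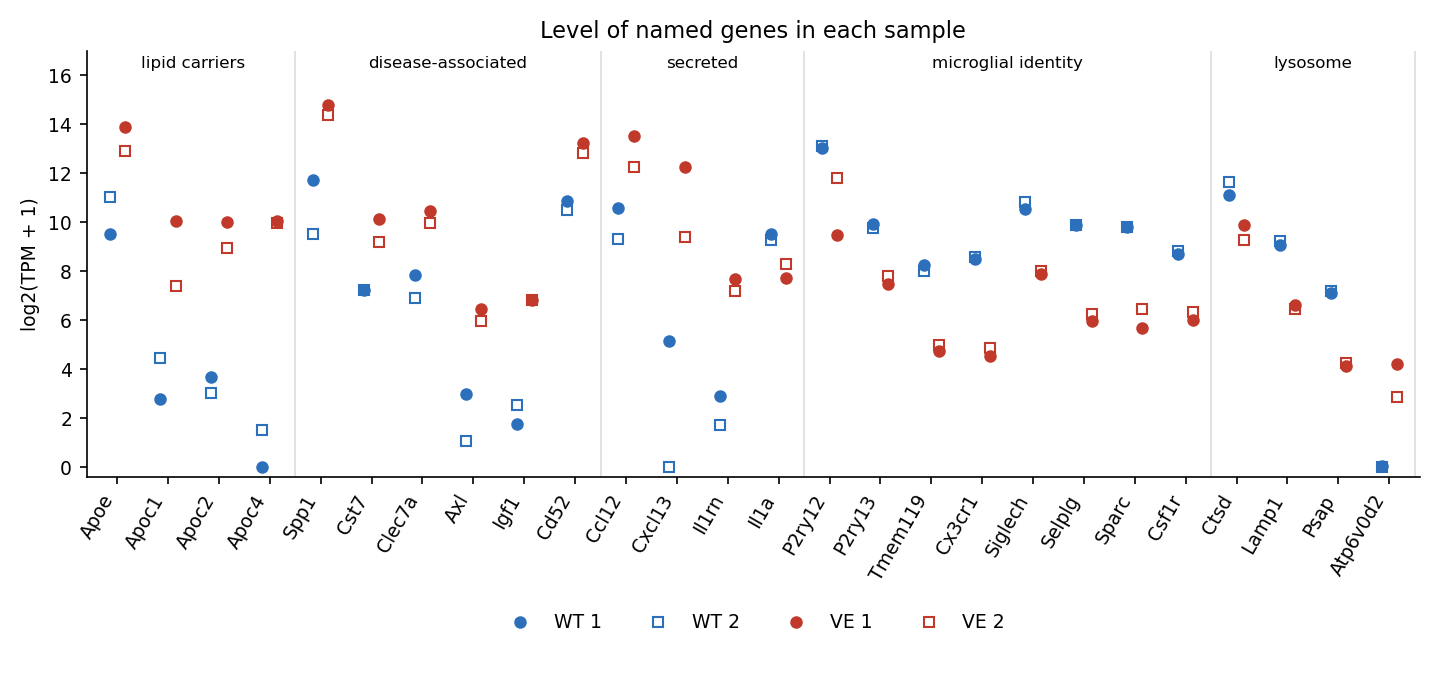
Level of 26 named genes in each sample (y axis, log2(TPM + 1)), WT in blue and VE in red, filled circles for the first and open squares for the second sample of a genotype, in 5 groups from left to right. The lipid carriers and disease-associated genes have both VE samples above both WT samples, and the microglial identity genes, P2ry12 included, have both VE samples below.

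Of 28 cytokine and chemokine genes 26 were tested, at medians of 1.07 and, after quantile normalization, 1.48. On log2(TPM + 1) 9 were higher and 2 lower, beside 3.61 and 14.7% of all tested genes. On both scales 7 rose and 2 fell, beside 2.95 and 3.38%. As for the disease-associated list, the counts on both scales depended most of all on having both VE samples in the fit. The largest difference was that of Cxcl13, a chemokine that attracts B cells, with 34.1 and 0.0146 TPM in WT and 4946 and 681 in VE, a difference of 8.27 on log2(TPM + 1) (SE 1.67, adjusted p = 0.030). Its values differed by several fold between the VE samples and by far more between the WT samples. Il1rn, the antagonist of the interleukin-1 receptor, had 6.59 and 2.33 TPM in WT and 206 and 145 in VE and rose by 5.11 (SE 0.50, limma adjusted p = 0.0090). Il1a, an agonist of the same receptor, fell from 729 and 616 to 208 and 312 TPM. The related cytokine Il18 fell from 401 and 382 to 178 and 189 TPM. Ccl12, which attracts monocytes, rose from 1531 and 629 to 11770 and 4865 TPM, Cxcl1, which attracts neutrophils, from 0 and 0.0185 to 71.2 and 12.7, and Cxcl14 from 1.41 and 0.430 to 25.1 and 17.1. Ccl3 and Ccl4, inflammatory chemokines, passed only on log2(TPM + 1), at 1.74 and 1.24. Il6 stood at 92.6 and 77.3 TPM in WT and 2.08 and 22.96 in VE, and Ccl8 at 491 TPM in VE 1 and 2.32 in VE 2. Neither of the latter passed on either scale.

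Of the 20 lists of pathways and programs, the homeostatic list had the lowest median, at -2.61 (-2.11 after quantile normalization), over 22 tested members of 22. All 22 members had both VE samples below both WT samples, beside 51.7% of all tested genes. On log2(TPM + 1) 19 were lower and 0 higher, beside 14.7 and 3.61% of all tested genes. On both scales 11 fell, beside 3.38%. The count on both scales depended more on having both VE samples in the fit than on either WT sample. Cx3cr1, the fractalkine receptor, stood at 366 and 377 TPM in WT and 22.2 and 28.1 in VE. Tmem119, a membrane protein used to tell microglia from other macrophages, had 306 and 256 TPM in WT and 25.6 and 30.5 in VE (-3.28, SE 0.28, adjusted p = 0.0087). Selplg, the P-selectin ligand, had 943 and 948 TPM in WT and 62.2 and 75.7 in VE (-3.77, SE 0.23, adjusted p = 0.0074). Sparc, a matrix-binding protein, fell from 884 and 887 to 50.9 and 86.0 TPM, and the lectin Siglech from 1480 and 1826 to 236 and 254. For these genes the gap between genotypes was several times wider than the difference within either pair, and the VE samples differed most for Sparc.

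Crybb1, a crystallin expressed by microglia, had the largest fall of the list, from 74.0 and 137 to 0.819 and 3.97 TPM. P2ry13 fell by 2.22 on the log2 scale, and Olfml3, a secreted protein, by 2.92. P2ry12, the receptor by which microglia sense ADP from damaged cells, had 8256 and 8898 TPM in WT, 716 in VE 1 and 3584 in VE 2. The VE samples differed by several fold, and it missed the threshold on log2(TPM + 1) (-2.42, adjusted p = 0.053) and passed after quantile normalization (-2.76, adjusted p = 0.047). Sall1, the transcription factor that maintains microglial identity, had 44.7 and 45.7 TPM in WT and 2.60 and 11.2 in VE and passed only on log2(TPM + 1) (-2.80). In these bulk samples fewer cells of a type and less RNA per cell cannot be told apart.

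**Figure D4:**
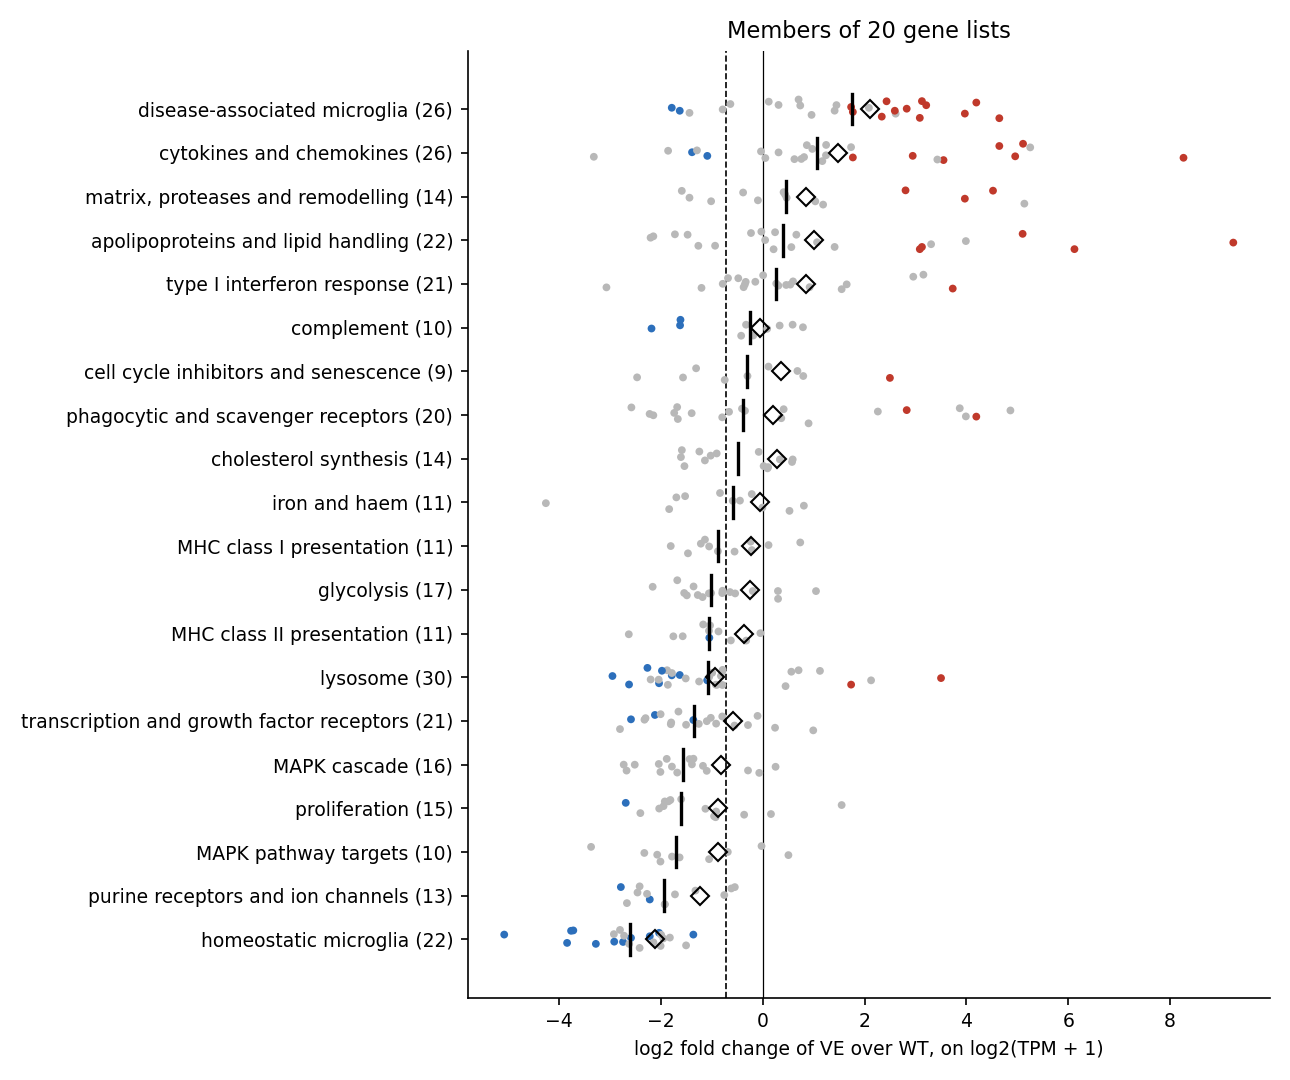
Log2 fold change of VE over WT on log2(TPM + 1) (x axis) for each tested member of 20 gene lists (rows, with the number of tested members), red for members higher and blue for members lower on both scales and grey for the rest. Black bars mark list medians, open diamonds the medians after quantile normalization, and the dashed line the median of all tested genes at -0.73. The medians run from 1.75 for the disease-associated list to -2.61 for the homeostatic list.

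Csf1r, the growth factor receptor that keeps microglia alive and whose gene drives the Cre, stood at 420 and 449 TPM in WT and 63.2 and 80.7 in VE. Its log2 fold change was -2.59 (SE 0.25, adjusted p = 0.0090) and -2.30 after quantile normalization. Tgfbr1, a receptor of the TGF-beta signal that microglia need, fell from 336 and 278 to 111 and 126 TPM, and the transcription factor Mef2a from 162 and 186 to 36.7 and 41.8. These were the 3 of 21 tested transcription factors and growth factor receptors that fell on both scales, and 0 rose. Of all tested genes 3.38% fell and 2.95% rose. The medians of the list were -1.36 and -0.58, against -0.73 and -0.11 over all tested genes. Spi1, which encodes PU.1, and Maf passed on log2(TPM + 1) alone, at -1.80 and -2.32. Spi1 held 127 and 120 TPM in WT and 34.9 in each VE sample. Of 13 tested purine receptors and ion channels, 2 fell and 0 rose, beside the same shares of all tested genes, at medians of -1.93 and -1.24. The 2 were P2ry13 and Entpd1, the enzyme that removes extracellular ATP, which fell from 196 and 220 to 33.1 and 25.8 TPM. Csf1r, Tgfbr1 and P2ry13 were also counted in the homeostatic list, so these counts are not separate findings.

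Of 30 tested lysosomal genes, 2 rose and 8 fell on both scales, beside 2.95 and 3.38% of all tested genes. The medians were -1.07 and -0.93. Here too the counts depended on which samples were in the fit, most of all on VE 1 and VE 2. Lamp1, a main protein of the lysosomal membrane, stood at 544 and 607 TPM in WT and 98.2 and 86.6 in VE, at a log2 fold change of -2.63. Lamp2, its closest relative, stood at 748 and 820 TPM in WT and 1082 and 1056 in VE, a difference of 0.45 that did not pass. Psap, the precursor of activators of lipid breakdown, fell by 2.95 on the log2 scale, Hexa, a lysosomal hydrolase, by 2.27, and the proteases Ctsz and Ctss by 1.98 and 1.09. Atp6v0d2, a subunit of the proton pump, was at 0.0352 and 0.00536 TPM in WT and 17.4 and 6.26 in VE and rose, as did Cd63. Atp6v1a, another pump subunit, passed only after quantile normalization, at 2.04.

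Among 20 tested phagocytic and scavenger receptors of 24, Axl and Clec7a rose and 0 fell on both scales. Of all tested genes 2.95% rose and 3.38% fell. The medians of the list were -0.38 and 0.21, and Axl and Clec7a were also counted in the disease-associated list. Mertk, a receptor kinase related to Axl, passed on log2(TPM + 1) alone and in the opposite direction, with 83.5 and 84.6 TPM in WT and 20.02 and 8.617 in VE (-2.58). The bridging ligands of these kinases, Gas6 and Pros1, also passed there alone, at -2.22 and -1.74. Msr1, a scavenger receptor, had 31.2 TPM in WT 1 and 0.00781 in WT 2 against 270 and 101 in VE and passed on neither scale. Fcer1g, the signalling chain of Fc receptors, passed on log2(TPM + 1) at 0.90 and not after quantile normalization.

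The complement list had 10 tested members of 16, at medians of -0.26 and -0.05. Of these members 3 fell and 0 rose, beside 3.38 and 2.95% of all tested genes. C1qa, a chain of the initiating C1q complex, fell from 1961 and 2348 to 850 and 568 TPM. The other chains of the complex did not pass on either scale, with log2 fold changes of -0.19 for C1qb (0.74 with median-ratio scaling) and 0.33 for C1qc (-0.03 after quantile normalization). Itgam, a subunit of complement receptor 3, fell by 2.19 on the log2 scale. Of 21 tested type I interferon genes 1 rose and 0 fell, beside 2.95 and 3.38% of all tested genes. The medians were 0.27 and 0.84. The gene that rose was Zbp1, a sensor of nucleic acids, with 7.05 and 1.72 TPM in WT and 126 and 29.3 in VE. Ifitm3, which blocks viral entry, stood at 581 and 137 TPM in WT and 5108 and 948 in VE and did not pass. Of 11 tested MHC class II genes 1 fell, Cd74, the chaperone of class II molecules, from 786 and 572 to 385 and 272 TPM. None of 11 tested MHC class I genes passed on both scales. B2m, the light chain of class I, passed on log2(TPM + 1) at 0.74 and had a log2 fold change of 0.00 after quantile normalization.

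Braf itself, which checks no allele because the table does not separate mutant from wild-type transcripts, stood at 6.27 and 5.27 TPM in WT and 1.14 and 0.560 in VE (-1.89, adjusted p = 0.059). Of 20 genes known to be induced by MAPK signalling 10 were tested, and 0 passed on both scales, at medians of -1.71 and -0.87. Dusp6, the phosphatase that limits ERK, stood at 151 and 95.5 TPM in WT and 70.6 and 46.6 in VE (-1.05, adjusted p = 0.085). Of the tested targets 7 had both VE samples below both WT samples and 1 above, beside 51.7 and 16.7% of all tested genes. The 1 above was Spred2, at 0.50 and not past the threshold. Most targets under the filter had both VE samples above both WT samples, at low levels. Dusp5, for one, stood at 0.0445 and 0.0486 TPM in WT and 0.811 and 0.130 in VE. No share over all genes under the filter was computed. Low coverage in VE was also seen for olfactory receptor genes, of which 1133 and 1140 of 1146 were above 0, against 285 and 476 in WT. The part of this low coverage in the values of the targets was not tested. Etv5, an ETS factor, and the immediate early genes Egr1 and Ier3 were lower on log2(TPM + 1) alone, at -2.07, -2.33 and -3.37. The immediate early and heat shock list, used as a sign of handling and overlapping with the targets in Egr1, also had mostly lower values in VE. Of its 11 tested members 10 had both VE samples below both WT samples, beside 51.7% of all tested genes, and its median was -1.09 after quantile normalization. Zfp36, which speeds the decay of cytokine messages, fell from 466 and 276 to 89.6 and 55.1 TPM, and the chaperone Hsp90aa1 from 183 and 177 to 41.8 and 21.6. The part of handling in these values was not tested. Among 16 tested members of the cascade 0 passed on both scales. On log2(TPM + 1) 5 were lower, among them the kinase gene Mapk3 at -2.04, beside 14.7% of all tested genes. The medians of the cascade were -1.56 and -0.82.

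Of 15 tested proliferation genes of 24, 1 fell and 0 rose on both scales, beside 3.38 and 2.95% of all tested genes. It was Stmn1, a regulator of microtubules, which fell from 133 and 87.8 to 12.5 and 20.2 TPM. Cdk1, the kinase of mitosis, stood at 4.71 and 5.32 TPM in WT and 15.87 and 17.34 in VE and passed only after quantile normalization, at 2.41. Mki67, a marker of dividing cells, did not reach the filter, at 2.61 and 0.326 TPM in WT and 0.0505 and 0.243 in VE. Among 9 tested cell cycle inhibitors and senescence genes 1 rose, beside 2.95% of all tested genes. Cdkn2b, which encodes the inhibitor p15, was at 0 and 0.234 TPM in WT and 8.41 and 3.19 in VE. The rise was 2.50 on log2(TPM + 1) (SE 0.59, limma adjusted p = 0.039). Only its VE values brought Cdkn2b past the filter of 1 TPM, so a rise was close to fixed in advance. Cdkn2a, at the same locus, was listed at 0 in both WT samples and at 0.272 and 0.0937 in VE, under the filter and near the medians of the olfactory receptor genes.

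The 14 tested matrix and protease genes of 20 had medians of 0.45 and 0.84. Of these genes 3 rose and 0 fell, beside 2.95 and 3.38% of all tested genes. Besides Spp1 they were Fn1 and Adam8. Fn1, which encodes fibronectin, went from 0.692 and 0.911 to 65.2 and 24.8 TPM. Adam8, a membrane protease, went from 0.0138 and 0.0429 to 8.31 and 4.54. Only their VE values brought Fn1 and Adam8 past the filter, so for these genes a rise was close to fixed in advance. Mmp12, an elastase of macrophages, had 488 TPM in WT 1 and 2.33 in WT 2, so its 1863 and 1082 TPM in VE did not pass. Of 17 tested glycolysis genes and 11 tested iron and haem genes 0 passed on both scales, at medians of -1.01 and -0.59 (-0.25 and -0.05 after quantile normalization). Slc40a1, the iron exporter ferroportin, passed on log2(TPM + 1) alone, with 58.1 and 50.1 TPM in WT and 0.149 and 6.16 in VE (-4.26).

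By the rule that took the 15 largest changes in each direction, the named protein-coding genes with the largest rises outside the lists of pathways and programs were Lyzl4, a lysozyme-like gene, with 0 and 3.10 TPM in WT and 199 and 83.0 in VE, the lectin receptor Klrb1b, with 0.0109 and 1.23 against 107 and 81.7, and the lectin receptor Clec4d, with 0.0196 and 0 against 120 and 22.3. Ms4a7, a membrane protein of macrophages outside the resting microglial set, rose from 33.8 and 8.20 to 2758 and 440 TPM. The repeat-associated model Gm10800 and 5 like it were also among the 15. The largest falls among named protein-coding genes were those of Ecscr, a cell-surface regulator known from endothelium, from 298 and 224 to 0.110 and 9.36 TPM, Ly6c2, a surface antigen of monocytes, from 86.8 and 30.5 to 0.340 and 0.661, and Crybb1. The tetraspanin Tspan7 fell from 229 and 177 to 2.56 and 23.2 TPM. Immunoglobulin segments (Ighj1, Ighj4 and Iglc2) fell as well, and in WT 1 and WT 2 Iglc2 stood at 20.7 and 154 TPM.

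Markers of other cells were present at different levels in the 4 samples. The 7 neutrophil markers summed to 4704 TPM in WT 2, with S100a8 at 2488, against 1.01 in WT 1 and 7.21 and 13.5 in VE. The 5 B cell markers summed to 22.4 and 206 TPM in WT and 2.70 and 2.11 in VE, and the 6 monocyte markers to 211 and 122 in WT and 1.44 and 24.2 in VE. Of these, Ly6c2, Chil3 and the B cell receptor chain Cd79b fell. The 7 markers of border-associated macrophages, which line the meninges and vessels, summed to 118 and 8.74 TPM in WT and 3034 and 478 in VE. Ms4a7 and the platelet factor Pf4 carried this sum, while the defining markers Mrc1 and Cd163 stood at 0.609 and 1.37 and at 0.0898 and 0.245 TPM in VE. The 9 T and NK cell markers summed to 2.77 and 9.98 TPM in WT and 23.1 and 26.7 in VE. Of these Klrb1c, a lectin receptor of natural killer cells, rose from 0.243 and 0.402 to 19.3 and 18.1 TPM, while the natural killer receptor Ncr1 stood at 0.0451 and 0.247 and the T cell receptor subunit Cd3e at 0.108 and 0.187 TPM in VE. Summed markers of oligodendrocytes were 64.6 and 39.7 TPM in WT and 10.0 and 8.54 in VE, of astrocytes 50.1 and 68.4 against 19.1 and 33.4, and of neurons, endothelial cells, dendritic cells and red blood cells under 10 TPM in each sample. No marker of any of these lists was listed at 0 in all 4 samples. Macrophage markers summed to 4356 and 4111 TPM in WT and 4113 and 2901 in VE, but 3 of the 8 fell (Csf1r, Itgam and Aif1), and Adgre1, which encodes F4/80, stood at 51.0 and 79.7 TPM in WT and 25.4 and 13.9 in VE. The part of these cells in the results was not tested.

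**Figure D5:**
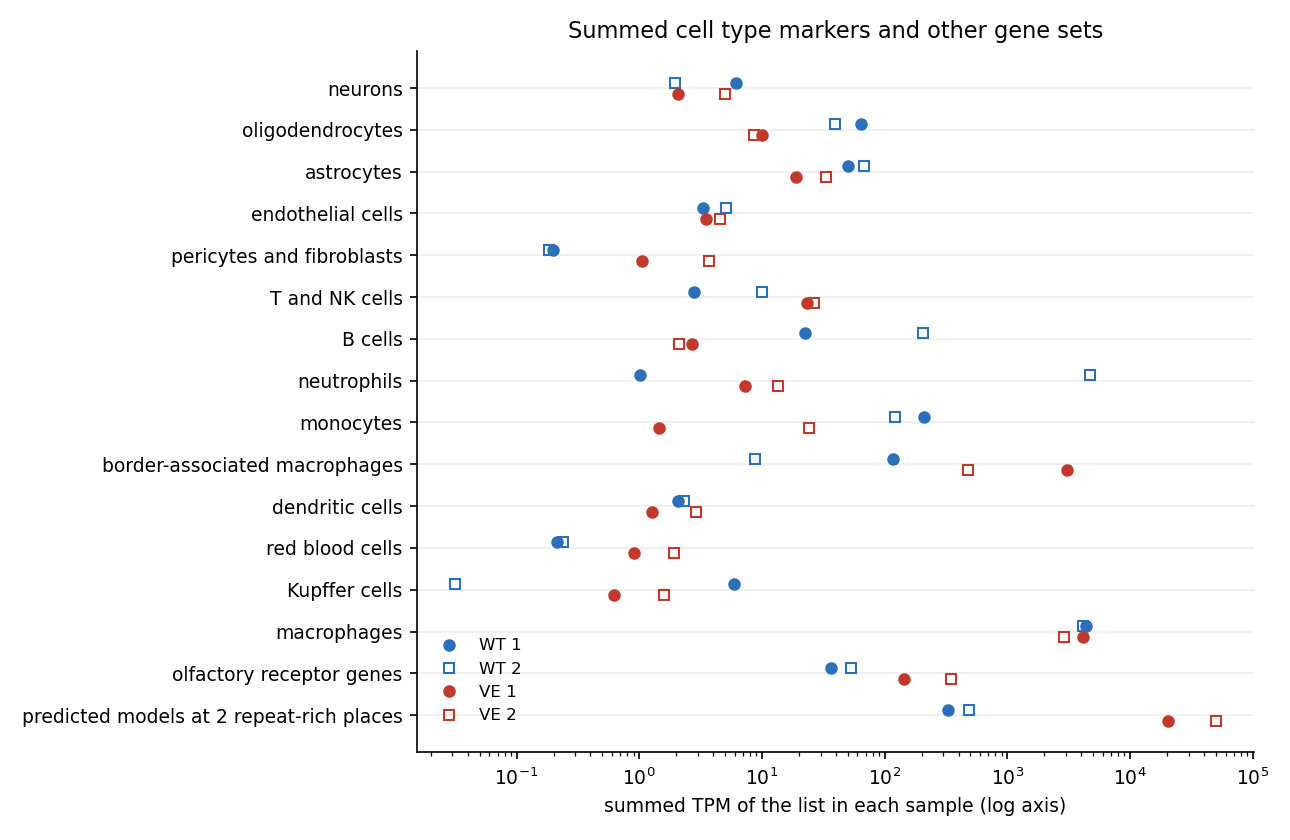
Summed TPM (x axis, log axis) of 14 cell type marker lists and of the olfactory receptor genes and repeat-associated models (rows) in each sample, WT in blue and VE in red, filled circles for the first and open squares for the second sample. WT 2 stands apart for neutrophil markers at 4704 TPM, and both VE samples for the repeat-associated models at 20533 and 49797 TPM.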

How the data were processed

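RNA of sorted cells was amplified by 14 cycles with the SMART-seq V4 kit, made into libraries with 8 further cycles and sequenced from both ends for 50 bp each, per the labels' protocols. The deposited values are TPM per Ensembl gene, computed by the authors; the submitters' processing notes name STAR, mm10 and GRCh38 without roles, and the quantifier is not given in the sources used here. Of 39017 genes, 96.4% had a symbol in GENCODE M21. Repeat columns were averaged as TPM. The test took genes that reached 1 TPM in at least 2 of the 4 samples and ran on log2(TPM + 1), pseudocount 1, with limma-trend (limma 3.58.1, R 4.3.3; tables with pandas 2.3.3), 2-sided, Benjamini-Hochberg threshold 0.05, then again after quantile normalization. A fold change on this scale understates that of low genes. Some genes under 1 TPM in both WT samples, such as Adam8, Atp6v0d2, Cdkn2b, Clec4d, Cxcl1 and Fn1, met the filter only through VE. Their direction was close to fixed by it. Strand is not marked by this kit, so reads of overlapping genes may be mixed. The code was tested on simulated data. With 2 against 2, an exact permutation test cannot go below p = 0.333, so none was run. Named genes were Braf, Csf1r, members of the gene and marker lists, and the 15 largest changes per direction among genes with at least 10 TPM in the higher group. The members and lists were chosen with earlier results of these data known. The 1-month table, normalized separately, was not used here. Some genes that meet the rule are not reported here. Scaling, pseudocount, filter, variance trend, weights, repeat columns, a block and left-out samples were varied.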

Additional observations from a re-analysis of the deposited data

How the results depend on the processing

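The counts on log2(TPM + 1), 440 higher and 1784 lower, were 1086 and 380 with median-ratio scaling, 518 and 417 after quantile normalization, 202 and 1161 without the variance trend, 48 and 137 with only the first column of each sample, and 16 and 7 with no filter, where 36940 genes were tested. The higher count was 221 with a pseudocount of 10 and 293 over multi-exon protein-coding genes, an alternative added after the data were seen. With a replicate block the higher count was 708, and after quantile normalization the counts were 1074 and 848, and 673 and 832 on both scales. The replicate numbers only name samples (correlation of deviations 0.00794), so this block pairs nothing. Leaving out 1 sample in turn gave 0 to 493 higher and 0 to 1602 lower. After quantile normalization it gave 23 to 174 and 45 to 110, and on both scales 0 to 174 and 0 to 110, the zeros without VE 1 or VE 2, where a lone sample is assumed to vary like the WT pair. Of the named genes, those past the threshold on log2(TPM + 1) kept their sign in every setting compared gene by gene. The exception is B2m, which had no difference after quantile normalization (0.00). The left-out samples after quantile normalization were not part of this comparison. On log2(TPM + 1), leaving out a sample cannot change the sign of a gene whose groups do not overlap. Uncalled genes changed sign for Trem2 (0.29) and C1qb (0.74) with median-ratio scaling, for C1qb without VE 2 (0.02; -0.40 without VE 1), for S100a8 without WT 2 (2.99; -8.08 without WT 1) and for C1qc after quantile normalization with or without the block (-0.03). The causes were not tested. TPM give no depth, so counting error is unknown.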

Other observations

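Further gene families were counted after their values were seen, and they differed in how many members passed. Of all tested genes 2.95% rose and 3.38% fell on both scales. All 6 tested members of the 16 in the Ms4a family, membrane proteins of immune cells, rose on both scales. Their median log2 fold change was 2.83. Ms4a6d, the most abundant of them, stood at 540 and 592 TPM in WT and 3416 and 1841 in VE, Ms4a6c at 24.7 and 34.8 against 489 and 192, and Ms4a4c at 59.6 and 59.7 against 415 and 169. The 3 tested of 6 Klrb1 genes, lectin receptors known from natural killer cells, also rose. Ncr1, another natural killer receptor, stayed at 0.247 TPM or less in VE. Klrb1a stood at 17.2 and 8.98 TPM in WT and 52.5 and 88.0 in VE. The 2 tested of 7 formyl peptide receptors, which sense bacterial peptides, also rose. Fpr1 went from 0.0198 and 4.30 to 230 and 23.1 TPM and Fpr2 from 0.0367 and 0.0210 to 59.3 and 8.26. Fpr2 and Klrb1c were under 1 TPM in both WT samples, so only their VE values brought them past the filter. For such genes a rise was close to fixed in advance.

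Of 42 tested heat shock and Dnaj genes, which encode chaperones of protein folding, 0 rose and 9 fell on both scales. Of all tested genes 3.38% fell. The medians of the family were -1.49 and -0.68. Hspa8, a chaperone that is always made, fell from 747 and 773 to 205 and 85.5 TPM. Hsp90ab1 fell from 257 and 248 to 33.1 and 10.0 TPM, and Hsp90b1, the chaperone of the endoplasmic reticulum, from 303 and 326 to 51.9 and 50.2. Of the 13 mitochondrially encoded protein genes 1 fell, mt-Nd3, and the others did not pass on both scales, at medians of -0.02 and -0.47. In other families counted in the same way few members passed. On both scales 3 of 16 tested Clec genes rose (median -0.17). So did 1 of 7 S100a genes (median -0.48) and 1 of 10 Ifi200 genes (median 1.00). Of 93 nuclear-encoded respiratory chain genes 6 rose and 1 fell (median 0.45). Of all tested genes 2.95% rose and 3.38% fell.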
